A study of Mus musculus with 12 samples.

Results

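Kupffer cells are the macrophages that live in the sinusoids of the liver. Transcripts of 10 genes that mark them, or macrophages in general, were followed in mouse liver: 6 genes used as markers of resident Kupffer cells (Adgre1, Cd5l, Clec4f, Vsig4, Marco and Timd4) and 4 used for macrophages in general or for lipid-associated macrophages (Csf1r, Cd68, Mpeg1 and Trem2). The genes were chosen by name and matched through their Ensembl identifiers, and all 10 were present among the 12086 genes of the table. Livers came from fasted male wild-type C57BL/6 mice at postnatal day 84 (12 weeks). Dams ate either RM1 chow (7% simple carbohydrates, 3% lipids) or an obesogenic diet (10% simple carbohydrates and 20% lipids) given with sweetened condensed milk, itself 55% simple carbohydrates with 8% each of lipid and protein and with added minerals and vitamins, litters were set to 6 pups, and male pups were assigned at random to either diet at weaning on day 21. Group names give the dam's diet and then the offspring's (C, control; O, obesogenic), and the groups held 3 libraries in CC, 2 in CO, then 3 in OC and 3 in OO, 11 in all of 12 labelled samples.

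Resident Kupffer cells arise largely from embryonic precursors, hold contact with the blood, clear particles and dying cells through scavenger and complement receptors, and depend on signalling through the receptor encoded by Csf1r. When they are lost, monocytes from the blood can enter the niche and take on Kupffer genes with time, with Timd4 among the late ones. Macrophages that take up lipid in fatty liver and fat tissue are known for Trem2, a lipid-binding receptor that signals through the adaptor encoded by Tyrobp.

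Values are scaled counts, gene counts divided by a factor per library, and genes are ranked by level only per kilobase of exon. Libraries are numbered within their group, and these numbers pair nothing. The recovered depth ran from 3976158 reads (OO.1) to 27837609 (OO.0), and 1 read was worth 0.0334 to 0.2765 scaled counts. Nothing in the sources used here says which animals shared a litter, so p-values measure the spread between these libraries. In whole liver RNA, fewer cells of a type and less RNA per cell cannot be told apart. As a check of the tissue, 10 hepatocyte markers summed to between 62299 and 82484 scaled counts per library. Several libraries stood apart. Transcripts of pancreas genes summed to 7.46 to 116 in 8 libraries, but to 5513 (OC.0), 3554 (CO.1) and 819.9 (CC.1) in the remaining 3, and summed acute phase transcripts reached 36130.1 in CO.1 and 23218 in OC.1 against 4965 to 9269.5 in the other 9. Skeletal muscle transcripts summed to 126 in OO.0, 72.0 in CC.0, 33.6 in CO.1, 28.5 in OC.0 and 19.7 in OC.2, and to 1.11 to 7.19 in the other 6.

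The sequences just upstream of the genes are shown for 4 members on which the results turn: Cd5l and Clec4f, whose levels varied together across libraries, and Mpeg1 and Trem2, which moved in opposite directions with offspring diet. They are the 250 bases before the annotated start, 5′ to 3′ on the strand of the gene, from RefSeq on GRCm38.p6, which is not the build used for alignment. RefSeq promoters were matched for 8 of the 10 members. Capitals mark matches to motifs searched on both strands.
Cd5l (chr3:87357631-87357880, plus strand): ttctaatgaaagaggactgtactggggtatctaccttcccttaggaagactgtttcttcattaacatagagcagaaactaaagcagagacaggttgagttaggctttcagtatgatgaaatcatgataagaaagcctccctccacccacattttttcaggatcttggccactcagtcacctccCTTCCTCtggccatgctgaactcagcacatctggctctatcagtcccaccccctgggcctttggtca
Clec4f (chr6:83656117-83656366, minus strand): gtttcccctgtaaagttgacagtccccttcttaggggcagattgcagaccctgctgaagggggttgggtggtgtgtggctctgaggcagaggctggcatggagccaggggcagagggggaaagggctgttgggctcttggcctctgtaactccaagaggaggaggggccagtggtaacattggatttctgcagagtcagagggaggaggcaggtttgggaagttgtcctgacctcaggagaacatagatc
Mpeg1 (chr19:12460520-12460769, plus strand): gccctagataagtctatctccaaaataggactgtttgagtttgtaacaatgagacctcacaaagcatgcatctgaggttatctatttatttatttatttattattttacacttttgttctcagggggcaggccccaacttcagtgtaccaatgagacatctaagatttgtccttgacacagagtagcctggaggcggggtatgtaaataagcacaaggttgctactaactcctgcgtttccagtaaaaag
Trem2 (chr17:48346151-48346400, plus strand): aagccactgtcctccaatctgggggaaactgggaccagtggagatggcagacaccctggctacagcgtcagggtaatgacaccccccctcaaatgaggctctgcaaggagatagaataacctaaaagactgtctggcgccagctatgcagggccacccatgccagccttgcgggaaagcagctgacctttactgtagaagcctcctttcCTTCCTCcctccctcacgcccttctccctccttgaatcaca
The motifs were chosen after the expression values were known, and they do not overlap in these windows. GAGGAAG, the core bound by PU.1-type ETS factors, was present in 3 of the 8 member promoters: Cd5l (reverse strand, starting 67 bases before the start), Trem2 (reverse strand, 41 bases before) and Marco (forward strand, 146 bases before). It was present in 10.6% of all 32851 promoters of the same length. TGCTGAC, a MAF recognition core, was found in Timd4 (3.81% of all promoters), and TGACTCA, the AP-1 element, was found at 2 places in Cd68 (4.46% of all promoters). CACGTGA, an E-box of the MiT family, was found in 0 of 8 member promoters and in 3.13% of all. Neither Clec4f nor Mpeg1 held any of the 4 motifs in this window. A match is a string of letters, not a site shown to be bound.

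The members differed widely in level. Per kilobase of exon (GENCODE M21 gene models), the scaled count in CC was highest for Cd5l, 53.3 ± 9.23 (SD, n = 3), a secreted scavenger protein, and Clec4f, 43.1 ± 7.02, a C-type lectin restricted to Kupffer cells. These neighbours overlapped, at 44.1 to 62.5 and 35.1 to 48.3. Vsig4, a complement receptor, followed at 21.3 ± 2.72 and lay below all Clec4f values and above all Csf1r values. Csf1r (13.5 ± 1.77), Mpeg1 (11.8 ± 1.92) and Adgre1 (7.70 ± 1.98), which encodes F4/80, came next. Csf1r and Mpeg1 overlapped, Mpeg1 lay above all Adgre1 values, and Adgre1 overlapped Cd68. Cd68 (5.06 ± 0.660), Marco (4.64 ± 1.76), Timd4 (3.13 ± 0.821) and Trem2 (2.74 ± 0.814) formed the low end, and each overlapped the next in this order. In CO the level of Mpeg1 per kilobase was 26.9 ± 6.37 (n = 2) and exceeded the 14.8 ± 0.506 of Csf1r, while Trem2 stood at 0.674 ± 0.128.

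**Figure D1:**
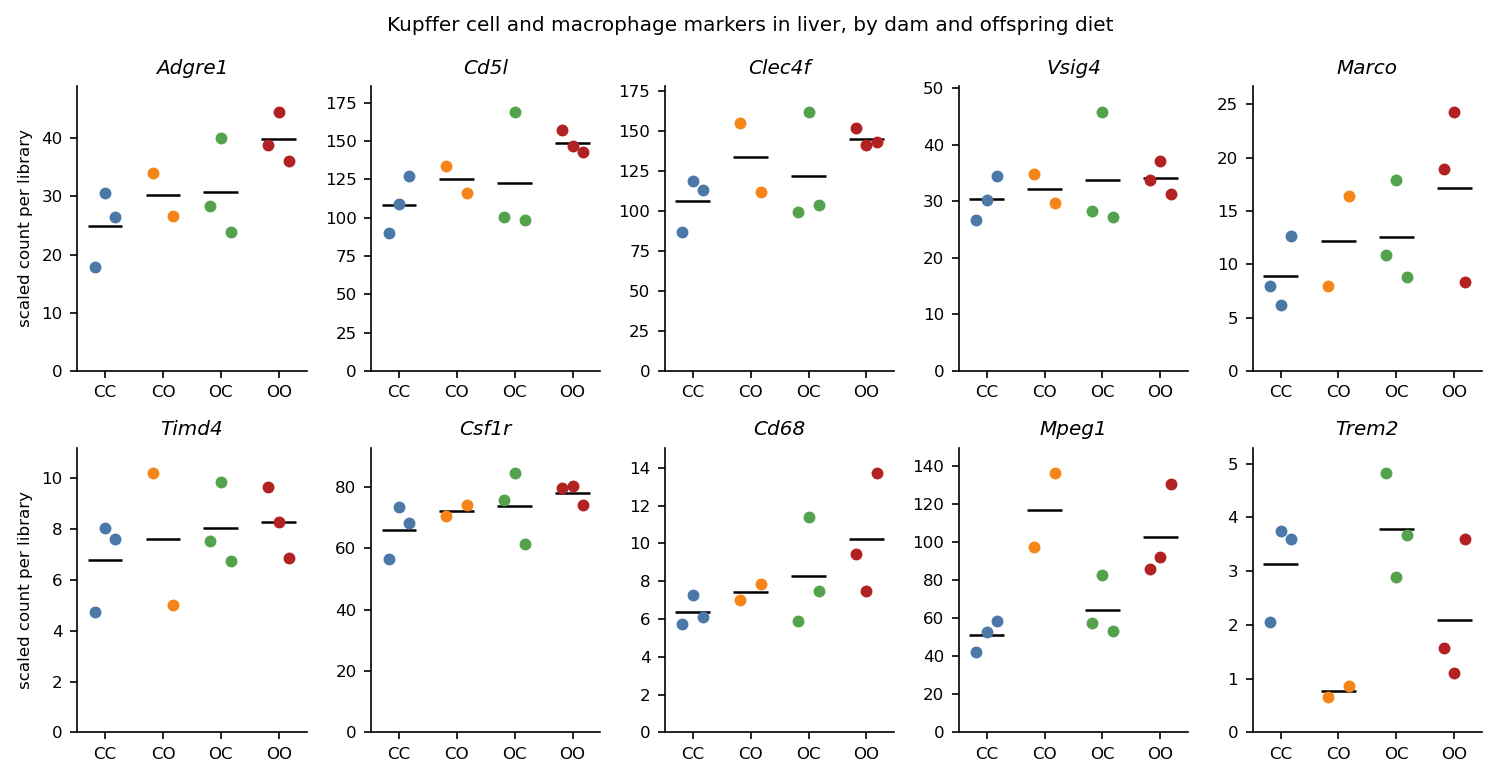
Scaled count of each of the 10 markers (vertical axes, from 0) in each library, by group of dam and offspring diet (horizontal axes). Points are libraries and bars are group means. Mpeg1 lies at 86.0 to 136 in the 5 libraries of obesogenic-fed offspring and at 42.0 to 82.4 in the 6 of control-fed offspring, while the 6 resident markers overlap between these diets.

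Mpeg1, which encodes perforin-2, a pore-forming protein of macrophages, was the member that rose. Its scaled count was 42.0, 52.9 and 58.3 in CC and 97.2 and 136 in CO. It was 57.4, 82.4 and 53.3 in OC and 86.0, 92.1 and 130.2 in OO. Both CO libraries lay above all CC libraries, the OO libraries lay above all OC libraries, and 5 of 5 libraries of obesogenic-fed offspring lay above all 6 of control-fed offspring. Over all genes, CO lay above CC in 17.0%, OO above OC in 6.60% and both together above the control-fed libraries in 2.08%. The mean rose from 51.1 ± 8.31 to 117 ± 27.6 between CC and CO, a log2 fold change of 1.18 (SE 0.24, limma adjusted p = 0.0358), or 2.26-fold. Mpeg1 was the only 1 of the 10 members called in this comparison, in which 1.79% of all genes were called (1.01% higher, 0.778% lower). With obesogenic-fed dams the log2 fold change was 0.67 (SE 0.21, unadjusted p = 0.00823 and adjusted p = 0.392 by limma), and 0 of the 10 members were called where 0.165% of all genes were. Averaged over both dam diets the offspring diet effect was 0.92 (SE 0.16, adjusted p = 0.0102), 1.90-fold.

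The average call for Mpeg1 held in each of the 11 fits that left out a library, with adjusted p of 0.00598 to 0.0447. It was lost when OC.0 and CO.1, the libraries with the most pancreas transcripts, were both left out (0.77, adjusted p = 0.102). The call between CO and CC was lost without CC.0 (1.04, adjusted p = 0.124), CC.1 (1.21, 0.053), CC.2 (1.28, 0.0778) or CO.1 (0.93, 0.22). CO.1 had the highest Mpeg1 value and the highest summed acute phase transcripts, and its part in the result was not tested beyond leaving it out.

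Trem2 was the member that fell, from few reads. Its scaled count was 2.06, 3.74 and 3.59 in CC and 0.667 and 0.873 in CO. It was 4.82, 2.89 and 3.67 in OC and 1.57, 1.11 and 3.59 in OO. Both CO libraries lay below all CC libraries, as 17.9% of all genes did, and OO overlapped OC through OO.2. The value rested on an estimated 4 reads in CO.0, CO.1 and OO.1 and on 13 to 47 in the other 8 libraries. The exact Poisson 95% intervals, which cover counting error only, were 0.182 to 1.71 in CO.0 and 0.238 to 2.24 in CO.1, and both overlap that of CC.0, the lowest CC library, 1.1 to 3.52. The average offspring diet effect on log2 was -1.15 (SE 0.27, limma adjusted p = 0.036), 2.22-fold lower, with 4 of 5 libraries of obesogenic-fed offspring below all 6 of control-fed offspring. The size depends on the pseudocount, with -1.41 at 0.1 and -0.70 at 2 against -1.15 at 0.5. The separate comparisons missed the threshold at -1.48 (SE 0.40, adjusted p = 0.0892) for CO against CC and -0.82 (SE 0.36, adjusted p = 0.592) for OO against OC. The CO against CC value of Trem2 was -1.86 at a pseudocount of 0.1 and -0.87 at 2. The average call held in 3 of the 11 fits that left out a library, those without CC.0, OC.1 or OO.2, and adjusted p ran from 0.0107 to 0.0906 over all 11. With Mpeg1, Trem2 made 2 of 10 members called for the average offspring diet effect, where 3.96% of all genes were called (2.24% higher, 1.72% lower).

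**Figure D2:**
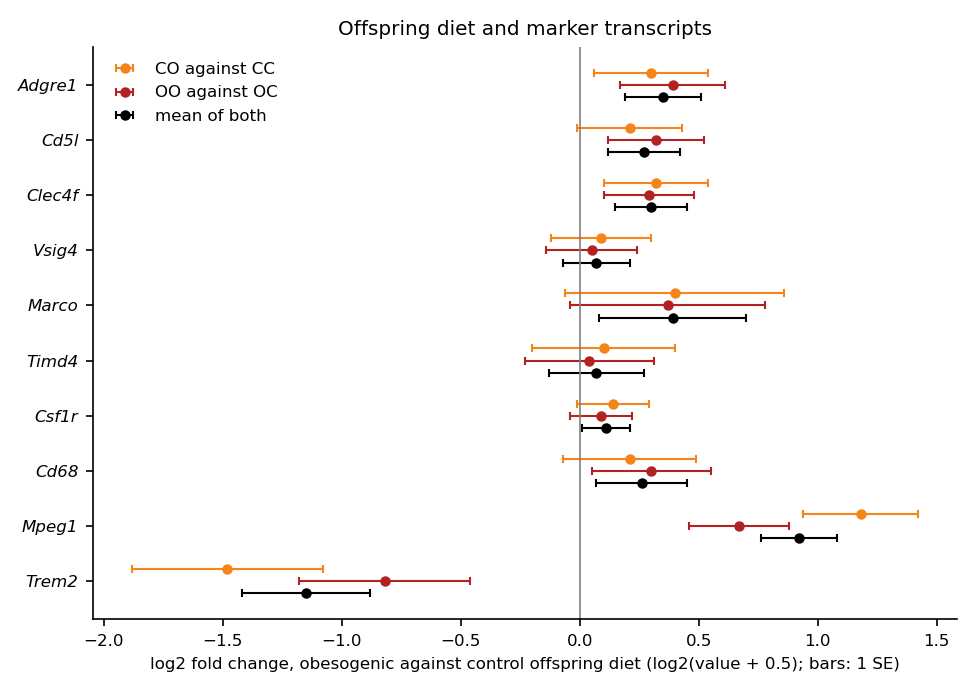
Log2 fold change of each marker with the obesogenic offspring diet (horizontal axis, on the log2(value + 0.5) scale) for CO against CC, OO against OC and the mean of both. Points are estimates and bars are 1 SE from limma. Mpeg1 stands at 0.92 and Trem2 at -1.15 for the mean of both, and the other 8 markers lie between 0.07 and 0.39.

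None of the 6 resident Kupffer markers passed the threshold with offspring diet. Their average effects on log2 were all above 0, as 49.8% of all genes were, and ran from 0.07 to 0.39. The median was 0.29, against a median of 0.00 over all genes. Of the 6, 0 reached an unadjusted p under 0.05 by limma in any of the 5 comparisons. Adgre1 was 17.9, 30.5 and 26.4 in CC, 34.0 and 26.6 in CO, then 28.4, 40.1 and 23.8 in OC and 38.8, 44.5 and 36.1 in OO. The OO libraries lay above both CO libraries, while OO overlapped OC and CO overlapped CC. Its average effect was 0.35 (95% interval -0.01 to 0.71, adjusted p = 0.275).

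Cd5l was 89.7, 109 and 127 in CC, 134 and 116 in CO, then 100.3, 169 and 98.4 in OC and 157, 147 and 143 in OO. Clec4f was 86.7, 119 and 113 in CC, 155 and 112 in CO, then 99.4, 162 and 104 in OC and 152, 141 and 143 in OO. For both genes OO was high in every library and OC was split, with OC.1 above all OO libraries. Their average effects were 0.27 (95% interval -0.05 to 0.59) and 0.30 (-0.02 to 0.62). These intervals exclude a 2-fold change in either direction and include no change.

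Vsig4 was the steadiest resident marker, at 30.4 ± 3.89 in CC, 32.3 ± 3.64 in CO, then 33.7 ± 10.5 in OC and 34.0 ± 2.93 in OO. Its average effect was 0.07 (95% interval -0.24 to 0.37). Timd4, a receptor for phosphatidylserine on dying cells, was 4.76, 8.04 and 7.60 in CC, 10.2 and 5.02 in CO, then 7.52, 9.88 and 6.75 in OC and 9.65, 8.29 and 6.86 in OO. The CO libraries spanned nearly the whole range of the series, and the average effect was 0.07 (95% interval -0.37 to 0.52). Marco, a scavenger receptor, had the widest spread among the resident markers, 3.94-fold over the 11 libraries. It was 7.93, 6.17 and 12.7 in CC, 8.00 and 16.4 in CO, then 10.9, 17.9 and 8.81 in OC and 18.9, 24.3 and 8.33 in OO. The groups overlapped throughout, and the average effect of 0.39 had a 95% interval of -0.28 to 1.06.

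Csf1r and Cd68 did not pass the threshold either. Csf1r had the narrowest spread of all 10 members, 1.5-fold, at 66.0 ± 8.64 in CC, 72.3 ± 2.47 in CO, then 73.9 ± 11.6 in OC and 77.9 ± 3.40 in OO. Its average offspring diet effect was 0.11 (95% interval -0.11 to 0.33). Cd68, a lysosomal glycoprotein, was 6.36 ± 0.829 in CC, 7.43 ± 0.607 in CO, then 8.26 ± 2.84 in OC and 10.2 ± 3.20 in OO. OO.2 (13.7) and OC.1 (11.4) were its highest libraries, the groups of offspring diet overlapped, and the average effect was 0.26 (95% interval -0.16 to 0.67).

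No member passed the threshold for maternal diet. The average maternal diet effects ran from 0.07 (Mpeg1) to 0.58 (Trem2) on log2, all 10 above 0, as 50.8% of all genes were. Members that vary together across libraries are not separate results. Trem2 had the smallest unadjusted p (0.0497 by limma, adjusted p = 0.789), and the other 9 had adjusted p of 0.789 to 0.961. Over all genes 0.0331% were called for maternal diet. In control-fed offspring (OC against CC) 0 of 12086 genes were called by limma, with 636 at an unadjusted p under 0.05, and the members stood at 0.11 to 0.47. In obesogenic-fed offspring (OO against CO) Adgre1, Cd5l, Csf1r and Trem2 lay in OO above both CO libraries, as 10.5% of all genes did. There 0 of 10 members were called and 0.0414% of all genes, with adjusted p for the members of 0.833 to 0.976. The comparisons share libraries, so their values are given side by side and are not support for each other.

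The test of whether the offspring diet effect differed with dam diet called 0 of 10 members and 0.0331% of all genes. The interaction was -0.50 for Mpeg1 (95% interval -1.20 to 0.19, adjusted p = 0.936) and 0.66 for Trem2 (-0.50 to 1.83, adjusted p = 0.936). A 2-fold difference between the effects under the 2 dam diets lies inside both intervals. For the other 8 members it was between -0.06 and 0.11, with adjusted p of 0.981 to 0.995.

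**Figure D3:**
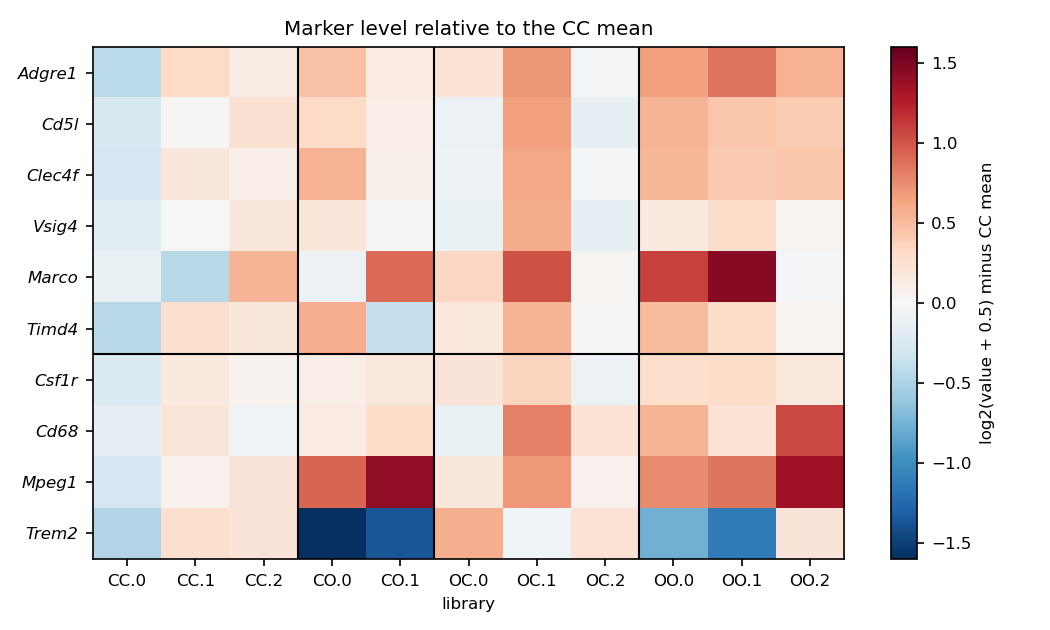
Level of each marker (rows) in each library (columns) as log2(value + 0.5) minus the CC mean, with red above and blue below. Black lines separate the 4 groups and the 6 resident markers from the other 4. CC.0 is lowest of 11 for 8 of 10 markers, and Trem2 is at -1.6 and -1.37 in the CO libraries.

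Single libraries carried much of the variation. CC.0 was the lowest of the 11 libraries for 8 of the 10 members, all but Marco and Trem2. It had the second highest muscle sum (72.0), and OO.0 had the highest (126) and was the lowest for 0 members. The part of muscle transcripts in these values was not tested. OC.1 was the highest for 4, Cd5l, Clec4f, Vsig4 and Csf1r, and was also an acute phase library. Relative to the CC mean, the mean log2 level of the 6 resident markers was 0.24 ± 0.14 (SD, n = 2) in CO, then 0.24 ± 0.39 in OC and 0.48 ± 0.21 in OO (n = 3 each). In OC the libraries were at 0.07, 0.69 and -0.04, so OC.1 stood apart. The mean of Csf1r, Cd68 and Mpeg1 was 0.51 ± 0.17 in CO, then 0.26 ± 0.31 in OC and 0.62 ± 0.22 in OO.

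Resident markers were set against the other 4 by subtracting the mean log2 level of the second set from that of the first within each library. These are log2 scaled counts not divided by exon length, so only the change between groups is read, not the level. The difference was 0.77 ± 0.12 in CC, 0.99 ± 0.31 in CO, then 0.75 ± 0.23 in OC and 0.93 ± 0.55 in OO. The average offspring diet shift of 0.21 was below the pooled SD of 0.34. Without Trem2 the difference was 0.01 ± 0.14 in CC, -0.26 ± 0.31 in CO, then -0.01 ± 0.09 in OC and -0.12 ± 0.43 in OO. Thus its shift with offspring diet was upwards with Trem2 and downwards without it. On the same scale, without length, the log2 level of Mpeg1 minus that of Clec4f was -1.05 ± 0.11 in CC and -0.19 ± 0.67 in CO, and -0.91 ± 0.10 in OC and -0.52 ± 0.35 in OO. It was between -1.17 and -0.79 in all control-fed offspring and spread from -0.81 to 0.28 in obesogenic-fed offspring.

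**Figure D4:**
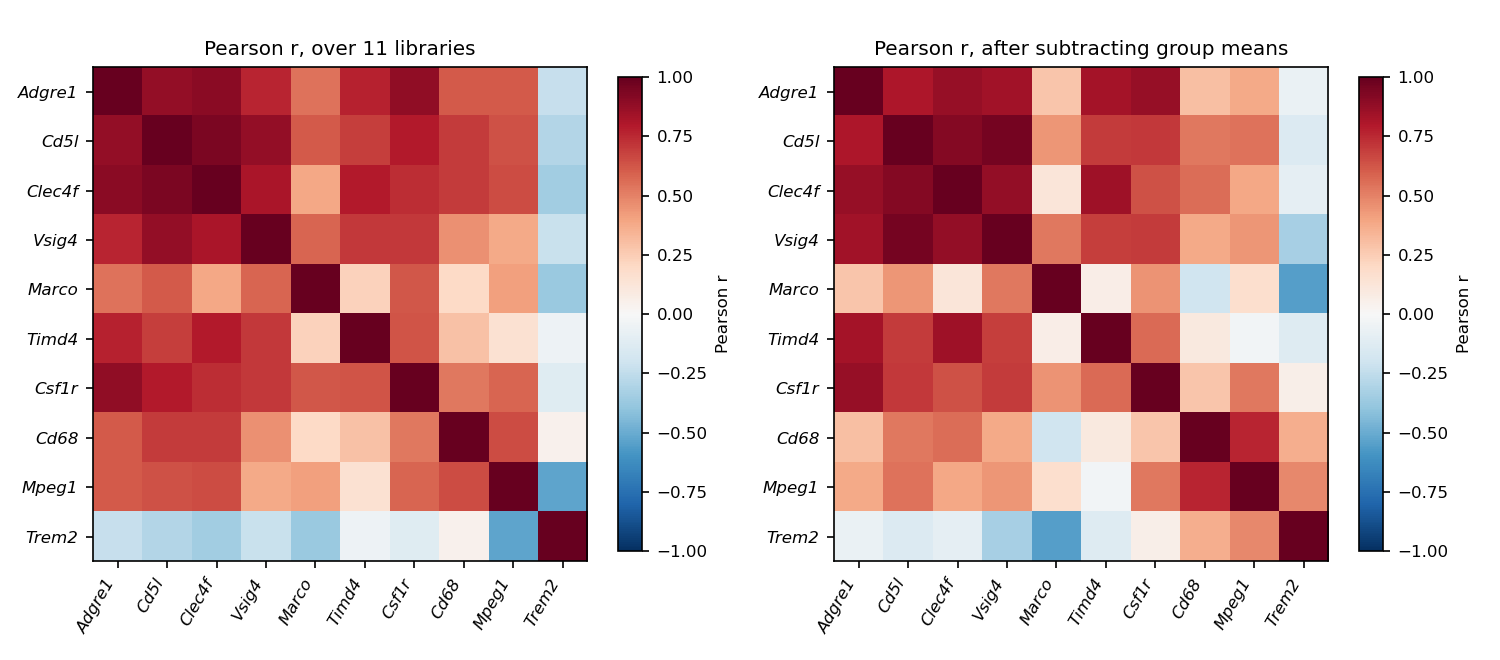
Pearson r between log2 levels of each pair of markers over 11 libraries (left) and after subtracting group means (right), with red for positive and blue for negative r. Cd5l, Clec4f, Adgre1, Vsig4 and Timd4 form a block with r of 0.69 to 0.94, and Trem2 has r of -0.37 to -0.05 with the 6 resident markers.

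Across the 11 libraries the resident markers varied together. Their 15 pairs had Pearson r of 0.23 to 0.94 with a median of 0.76, and a median of 0.81 after group means were subtracted. Without Marco the lowest of the 10 remaining pairs was 0.69. These r values describe libraries that share scaling, groups and the low CC.0 library, and carry no test. Csf1r had r of 0.62 to 0.89 with the resident markers, Cd68 0.20 to 0.70 and Mpeg1 0.15 to 0.65. Mpeg1 and Trem2 had r = -0.53 over all libraries and 0.48 within groups.

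The genes most like each member, by Pearson r of log2 levels over the same 11 libraries among 9398 genes (9399 for Trem2), differed between the markers. These r values were picked as the highest of many over few libraries, and carry no test. Folr2, a folate receptor of Kupffer cells, ranked first for both Cd5l and Clec4f (r = 0.97 for each). Next for Cd5l were Clec4f (0.94) and C1qc (0.92), and next for Clec4f were Tmem50a (0.96) and Cd5l (0.94). Cfp, the gene for properdin, ranked first for Vsig4 (0.93), followed by Dse and Cd5l (0.88 each). Capza1 ranked first for Csf1r (0.91), followed by Adgre1 and Tmsb4x (0.89 each). The nearest genes to Mpeg1 were Ttc7 (0.98), Phldb2 (0.96) and Saa4 (0.95), which is on the acute phase list used here. Those of Trem2 included Dffa (0.96) and Lsm10 (0.95). Those of Adgre1 were Syt1, Hk3 and Nrros (0.92 to 0.94), those of Timd4 were Dse, Mafg and Arhgef37 (0.88 to 0.93), those of Marco were Stk3, Irak4 and Slc11a2 (0.84 to 0.87), and those of Cd68 were Mien1, Ift172 and Calm3 (0.93 to 0.95).

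Of 18 further genes of Kupffer cells, all measured, 0 rose and 2 fell for the average offspring diet effect, and the median was 0.09. Over all genes 3.96% were called (2.24% higher, 1.72% lower), and these shares apply to each list that follows. Slc40a1, the iron exporter ferroportin, fell by 0.69 on log2 (SE 0.16, limma adjusted p = 0.0322), and Pltp, the phospholipid transfer protein, fell by 0.58 (SE 0.14, adjusted p = 0.0406). Hepatocytes express both as well. Cd163, the haemoglobin scavenger receptor, stood at -0.67 (adjusted p = 0.0542), and Folr2 at 0.35 (adjusted p = 0.33). Nr1h3 (0.08) and Spic (0.06), which encode transcription factors of Kupffer cells, were close to 0.

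Of 25 other genes expressed by macrophages in general, 21 were above 0 and the median was 0.33, against 49.8% of all genes above 0. For the average maternal diet effect 20 of 25 were above 0 (median 0.10), against 50.8% of all genes. For OC against CC 25 of 25 were above 0 (median 0.18), against 50.7%. Their summed level was lowest in CC.0, at 519. Genes that vary together across libraries are not separate results. Fcgr1, a high-affinity Fc receptor (0.97, SE 0.23, adjusted p = 0.0417), and Axl, a receptor for dying cells (0.54, SE 0.13, adjusted p = 0.0485), rose, and 0 fell. Fcgr1 was 1.43, 3.74 and 2.49 in CC, 5.83 and 5.68 in CO, then 2.0, 4.26 and 2.79 in OC and 5.24, 4.70 and 6.86 in OO. Its obesogenic-fed libraries all lay above the control-fed ones, as in 2.08% of all genes. C1qa, a complement subunit, stood at 0.40 (adjusted p = 0.0648), and Tyrobp, the adaptor of Trem2, at 0.42 (adjusted p = 0.245).

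Of 14 other lipid-associated genes measured of 16, 1 rose and 0 fell, with a median of 0.22, 10 above 0 and 4 below. Fabp5, a fatty acid binding protein, rose by 2.0 (SE 0.41, limma adjusted p = 0.0218). It was 2.69, 6.54 and 4.01 in CC, 24.2 and 43.9 in CO, then 2.58, 10.8 and 2.64 in OC and 18.5, 11.9 and 4.90 in OO. CO lay above all CC libraries, as in 17.0% of all genes, and OO overlapped OC. Spp1, which encodes osteopontin, stood at 0.69 (adjusted p = 0.0652).

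Among monocyte genes, 8 of 14 were measured, with 1 called higher and a median of 0.59. Plac8 rose by 0.89 (SE 0.17, limma adjusted p = 0.0151), while Ly6c2, Chil3 and F13a1 were not found by symbol among the 12086 genes. Among ligands, receptors and chemokines of macrophages, 6 of 12 were measured and 1 rose, Csf2rb, the shared receptor subunit for GM-CSF and IL-3 (1.11, SE 0.17, adjusted p = 0.00604). It was 4.12 to 6.22 in CC, 10.8 and 13.5 in CO, then 3.52 to 5.40 in OC and 8.01 to 13.2 in OO. Csf1, a ligand of the receptor encoded by Csf1r, stood at 0.50 (adjusted p = 0.0579). Among macrophage cytokines and effectors, 6 of 11 were measured and 1 fell, Arg1 (-1.16, SE 0.17, adjusted p = 0.00454), which in liver is mainly the hepatocyte enzyme of the urea cycle.

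**Figure D5:**
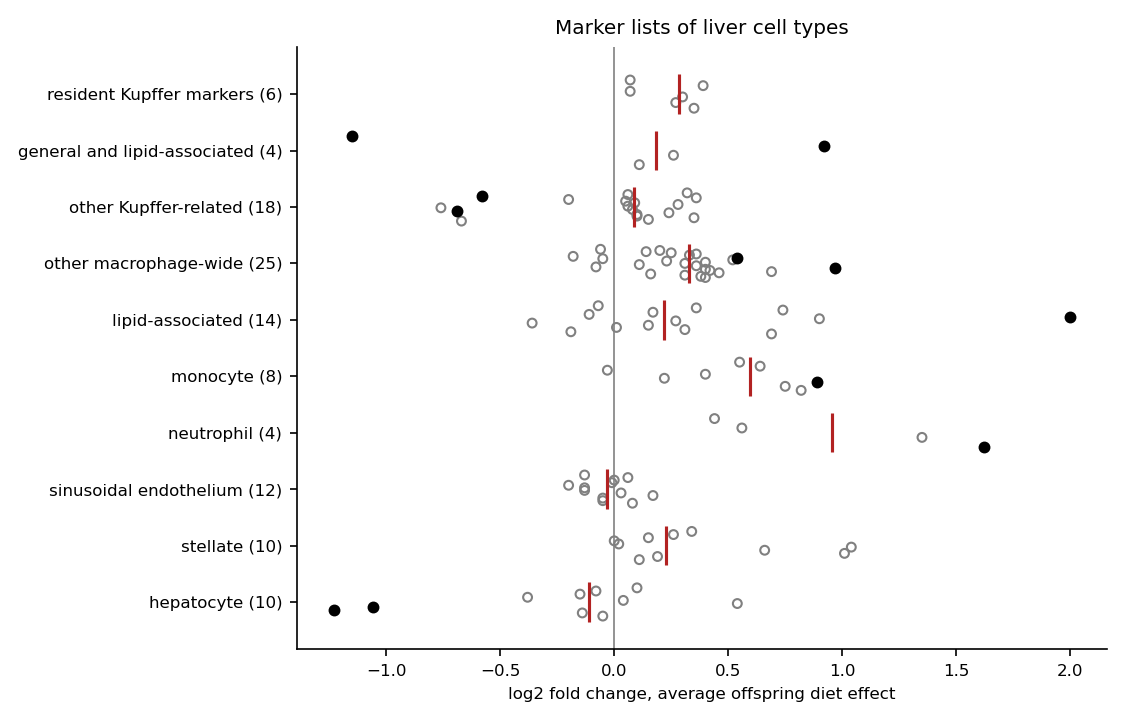
Log2 fold change of each measured gene for the average offspring diet effect (horizontal axis), in 10 of the 18 lists (rows, with the number of genes measured). Filled points passed a limma adjusted p of 0.05, open points did not, and red lines are medians. The macrophage-wide genes have a median of 0.33 and those of sinusoidal endothelium -0.03.

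Markers of other cells moved in part with these genes. Of 4 neutrophil genes measured of 11, S100a8 rose (1.62, SE 0.30, limma adjusted p = 0.0128), and their summed level was 7.32 to 11.7 in CC, 18.7 and 43.7 in CO, then 10.2 to 14.8 in OC and 10.9 to 16 in OO. S100a8 alone was 0.276 to 0.951 in CC, 2.83 and 8.95 in CO, then 0.587 to 1.32 in OC and 1.67 to 2.21 in OO. It rested on few reads in CC, where 3 reads were worth 0.415 to 0.561. Ly6g, Mpo and Elane of the same list were not found by symbol among the 12086 genes. Of 12 genes measured from the acute phase list, 3 rose and 0 fell, with a median of 1.31. They were Saa4 (1.43, limma adjusted p = 0.0104), Il1rn (1.72, adjusted p = 0.0128) and Stat3 (0.62, adjusted p = 0.0282). Over the 11 libraries Saa4 spanned 8.35-fold, against 351-fold for Saa1 and 664-fold for Saa2. The median of the acute phase list was 2.15 for CO against CC and -0.15 for OO against OC, where 5 were above 0 and 7 below. The part of these cells and of the acute phase in the values of Mpeg1 and Trem2 was not tested. Without CO.1 and OC.1, the acute phase libraries, Mpeg1 stood at 0.90 (adjusted p = 0.0243) and Trem2 at -1.29 (adjusted p = 0.0836).

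Lists for the sinusoid's other cells gave no call. Of 12 genes of sinusoidal endothelium 0 passed the threshold, with a median of -0.03 and summed levels of 552 to 648 in all 11 libraries. Their smallest unadjusted p belonged to Clec4g (0.17, adjusted p = 0.293) and Oit3 (-0.13, adjusted p = 0.431). Of 10 stellate cell genes 0 passed, with a median of 0.22, although 9 of 10 were above 0 and 5 had an unadjusted p under 0.05 by limma. Hgf was at 0.34 (adjusted p = 0.0545) and Col3a1 at 1.04 (adjusted p = 0.0962). Summed stellate levels were 437 to 446 in CC, 539 and 558 in CO, then 467 to 566 in OC and 508 to 695 in OO.

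Hepatocyte genes gave 2 calls of 10, both lower, Tat (-1.23, limma adjusted p = 0.0149) and Cps1 (-1.06, adjusted p = 0.0318), with a median of -0.11. The remaining lists gave 0 calls. They were lymphocytes (1 of 12 genes measured, Cd79b at -0.59, adjusted p = 0.27), dendritic cells (2 of 9, Zbtb46 at -0.26 and Clec9a at -0.03), cholangiocytes (2 of 6, Epcam at 0.56 and Sox9 at -0.27), pancreas (10 of 13, median 0.75, with Cpb1 at 1.09 and Prss2 at 1.0) and skeletal muscle (5 of 6, median -0.23, with Acta1 at -0.49 and Tnni2 at -0.28). Prss2, Cela3b and Try4 of the pancreas list and Ckm, Myh4 and Tnni2 of the muscle list were listed at 0 in at least 1 library.

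The calls within the lists rested on few libraries. For the average offspring diet effect, the number called over the fits that left out a library was 0 to 3 for the further Kupffer genes, 0 to 5 for the macrophage-wide genes, 0 to 2 each for the lipid-associated, monocyte and neutrophil lists, 1 to 4 for the acute phase list and 1 to 2 for the hepatocyte list. Without OC.0 and CO.1, the pancreas libraries, each of these 7 lists had 0 calls. The ligand and receptor list kept a count of 1 to 2 and the cytokine list a count of 1 in all of these fits.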

How the data were processed

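Liver RNA of 11 libraries was analysed in 4 groups, 11 of 12 labelled samples. The signal values the authors deposited are gene counts that, judged from the numbers themselves, were divided by a factor in each library: column sums ran from 929699 to 1099404, and 95.71% to 97.34% of values were whole multiples of 1 read (tolerance 0.01 reads). Bowtie 1.2.3 and mm8 were used, per the submitters' processing notes. The counter, annotation, strand setting and scaling are, in the sources used here, not given.

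Libraries could be assigned to a group by column name, not to a labelled sample. Symbols matched 11965 of 12086 identifiers. The test was limma 3.58.1 (R 4.3.3) on log2(value + 0.5), with its intensity trend and fitted across all genes and libraries with 1 mean per group (7 residual and 4.66 prior degrees of freedom) and Benjamini-Hochberg adjustment over 12086 genes at 0.05. All genes reached a value of 1 in at least 3 libraries. Fold changes are on that scale and understate changes of low genes. The fit was tested on simulated data. Intervals of differences are limma's 95% intervals.

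The members and the 18 marker lists were chosen with earlier results of these data known. Named from each list were genes past the threshold, at most 4, or else the 2 with the smallest p for the average offspring diet. Cd163, Folr2, Nr1h3, Spic, C1qa, Tyrobp, Spp1 and Csf1 were chosen for naming with their values in view. Of the genes that the rule on likeness takes, 1 is not reported here. Alternatives tried were other pseudocounts, scaling, a higher minimum value, fewer groups and fewer libraries.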

Additional observations from a re-analysis of the deposited data

How the results depend on the processing

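Fits on recovered read counts with other tools were planned but not run, because not all values were shown to be whole reads (95.71% to 97.34% per library were). No paired analysis was possible because the column names carry no number that pairs libraries. The number of the 10 members called for CO against CC was 1, and 0 without the 2 pancreas libraries (OC.0 and CO.1) or without the 2 acute phase libraries (OC.1 and CO.1). It was 0 to 2 when 1 library was left out (2 without OO.2). For the average offspring diet effect it was 2, 1 with a minimum value of 5, at which Trem2 was not tested (10238 genes), 0 without the pancreas libraries, 1 without the acute phase libraries and 1 to 2 when 1 library was left out. Trem2 was lost without either pair (-1.13, adjusted p = 0.175, and -1.29, 0.0836), and Mpeg1 for CO against CC likewise (0.93, 0.248, and 0.93, 0.164). Apart from fewer libraries and, for the minimum value, fewer genes, the cause was not tested. No member was called for OO against OC, maternal diet or the interaction under any alternative run.

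Genes called among all 12086 fell for CO against CC from 216 to 95 with only the groups compared and to 16 and 14 without the pancreas and acute phase libraries, and were 19 to 233 when 1 library was left out. The average offspring diet effect had 479, and 134, 250 and 253 to 483 in those library fits, and OO against OC had 20, 12 (only the groups compared), 12, 35 and 8 to 30. Maternal diet had 4, and 3 to 6 when 1 library was left out.

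Of 865 alternative values of the members' fold changes, 61 had the other sign, none of them called. Without the pancreas libraries these were Marco (-0.09) for CO against CC, Vsig4 (-0.05) for OO against OC, Timd4 (-0.01) for maternal diet, and Adgre1 (-0.12), Cd5l (-0.11), Marco (0.40), Csf1r (0.01) and Cd68 (-0.04) for the interaction. Without the acute phase libraries they were Marco (-0.09) for CO against CC, Clec4f (-0.07), Vsig4 (-0.08) and Timd4 (-0.10) for maternal diet, and Vsig4 (0.09), Marco (0.74) and Csf1r (0.08) for the interaction. With 1 library left out, the values that crossed 0 were, for CO against CC, Vsig4 -0.03 to 0.20, Marco -0.09 to 0.90, Timd4 -0.37 to 0.58. For OO against OC they were Vsig4 -0.08 to 0.29, Timd4 -0.07 to 0.19, Csf1r -0.04 to 0.19. For the average offspring diet effect they were Timd4 -0.16 to 0.31. For the average maternal diet effect they were Vsig4 -0.03 to 0.16, Timd4 -0.03 to 0.45, Mpeg1 -0.06 to 0.19. For the interaction they were Adgre1 -0.08 to 0.31, Cd5l -0.02 to 0.36, Clec4f -0.26 to 0.20, Vsig4 -0.17 to 0.20, Marco -0.53 to 0.46, Timd4 -0.54 to 0.41, Csf1r -0.18 to 0.06, Cd68 -0.14 to 0.33. The average offspring diet shift of resident against other markers, with Trem2 included, stayed between 0.10 and 0.38, where the pooled SD was 0.34. The shift without Trem2, which was downwards, was not computed under these alternatives. Leaving out a CO library leaves 1, assumed to vary like the other groups.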
